A study of Homo sapiens with 48 samples.

Results

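The comparison of CFPAC1 libraries labelled siZNF274 with CFPAC1 libraries labelled DMSO takes in 6 of the 48 samples of the series, chosen by their labels, and covers all expressed genes. CFPAC1 is an established human cell line of pancreatic ductal adenocarcinoma (PDAC). The 3 siZNF274-labelled libraries came from cells given a transient small interfering RNA (siRNA) directed at ZNF274. The 3 siCTRL libraries, set beside them throughout, came from cells given a control siRNA, and the 3 DMSO libraries from cells given the solvent DMSO, for which the labels name no siRNA. Another 3 CFPAC1 libraries, treated with the DNA methyltransferase inhibitor azacitidine, entered the fit for the gene filter, the scaling and the estimate of the spread. They are not compared here. No source used here gives the siRNA sequences, their number, the time after transfection or the DMSO dose. A difference between the siZNF274-labelled and the DMSO libraries therefore holds the transfection, the presence of a duplex RNA, its intended target and the solvent, and these cannot be told apart in this pair alone. The same contrast in ASPC1, a further PDAC line, is used where the effect was tested for a difference between lines.

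RNA of the RNA-seq samples was depleted of ribosomal RNA and sequenced, and whole-number counts per gene were deposited. The series also holds ASPC1 samples labelled with ZNF274, H3K9me3 or IgG, which are not used here. Totals ran from 36802346 to 43383141 counts over the 9 CFPAC1 libraries of the siZNF274, siCTRL and DMSO groups. Levels are given as counts per 1e6 counts after TMM scaling (CPM), 1 value per library and not corrected for gene length, so that levels are compared between groups and not between genes. A gene was called where edgeR's quasi-likelihood test gave a Benjamini-Hochberg adjusted p under 0.05 over all 18103 tested genes. "Rose" and "fell" are used of called genes. Where a list has a count of 0, edgeR called no member, and the count was also 0 at an unadjusted p under 0.05 unless another is given. The design text calls the samples biological triplicates but names no separate cultures. The p-values rest on the spread among the 3 libraries of a group. In bulk RNA, fewer cells of a kind and less RNA per cell cannot be told apart. MALAT1, a nuclear RNA, took 0.568 ± 0.0879% of the counts in the siZNF274-labelled libraries, 0.504 ± 0.0577% in siCTRL and 0.417 ± 0.0731% in DMSO (SD, n = 3 each), and mitochondrial genes took 1.26 ± 0.141% in the siZNF274-labelled libraries, 1.51 ± 0.275% in siCTRL and 1.20 ± 0.378% in DMSO; the part of these shares in the results was not tested. Keratins of ductal epithelium were abundant in every library, with KRT8 between 2887 and 3796 CPM. Of 15 leukocyte markers, CD3D, NKG7 and FCGR3A had no count in the 9 libraries, and of 11 endothelial markers FLT1 had none. Other markers of these lists had counts. The leukocyte list summed to 86.6 to 99.2 CPM of the total count in the siZNF274-labelled libraries, 69.2 to 75.3 in siCTRL and 75.5 to 84.4 in DMSO. The 11 fibroblast markers summed to 90.2 to 167 CPM in the siZNF274-labelled libraries, 101 to 147 in siCTRL and 145 to 157 in DMSO.

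ZNF274 is a zinc finger protein with a KRAB domain that is known to bind the ends of other zinc finger genes and to bring the SETDB1 methyltransferase, which places the silencing mark H3K9me3. Interferons are secreted signals of infection: they act through receptors and transcription factors on genes that carry an interferon-stimulated response element. Cells also hold sensors of double-stranded RNA, among them RIG-I (DDX58), MDA5 (IFIH1) and TLR3, whose activation is known to switch on many of the same genes. E-cadherin, claudins, desmosomes and keratins hold epithelial cells of the pancreatic duct together, and their loss with a gain of matrix genes is the pattern known as epithelial to mesenchymal transition.

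The targeted gene was read first. ZNF274 (ENSG00000171606.18, chromosome 19, 58183029 to 58213562, hg38) had 32.6, 34.4 and 31.5 CPM in the siZNF274-labelled libraries, 33.5, 33.95 and 35.7 CPM in siCTRL and 28.3, 28.1 and 28.99 CPM in DMSO. Every siZNF274-labelled and every siCTRL library lay above every DMSO library, and the siZNF274-labelled and siCTRL libraries overlapped. Against DMSO the gene was thus higher, not lower, in the siZNF274-labelled libraries (log2 fold change 0.20, SE 0.0563, edgeR adjusted p = 0.00980). The siCTRL libraries were higher than DMSO as well (log2 fold change 0.27, edgeR adjusted p = 0.00325). The mRNA level therefore gives no sign of a knockdown, the protein was not measured here, and each direction given is that of libraries labelled siZNF274.

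Of 18103 tested genes, 6160 (34%) were called between the siZNF274-labelled and the DMSO libraries, 2874 higher (15.9%) and 3286 lower (18.2%). At least 2-fold changes were fewer, with 550 genes higher (3.04%) and 230 lower (1.27%) in siZNF274 against DMSO, 175 (0.967%) and 66 (0.365%) in siCTRL against DMSO, and 216 (1.19%) and 91 (0.503%) in siZNF274 against siCTRL. For siCTRL against DMSO, 2810 genes (15.5%) were called, 1322 higher (7.3%) and 1488 lower (8.22%). The direct test of siZNF274-labelled against siCTRL libraries called 4483 genes (24.8%), 2099 higher (11.6%) and 2384 lower (13.2%). Without siZNF274 replicate 2, 1565 genes were lower in that test. Whatever the test, 8246 genes (45.6%) had siZNF274-labelled and DMSO libraries that did not overlap. The 3 comparisons share libraries, so their values are set side by side and no overlap between them is drawn on. The median log2 fold change over all genes was near 0 in each, at -0.0017 for siZNF274 against DMSO, 0.0081 for siCTRL against DMSO and -0.0062 for siZNF274 against siCTRL. With upper quartile scaling in place of TMM, 3347 genes were higher and 2758 lower than DMSO, so the balance of the 2 directions depends on the scaling.

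**Figure D1:**
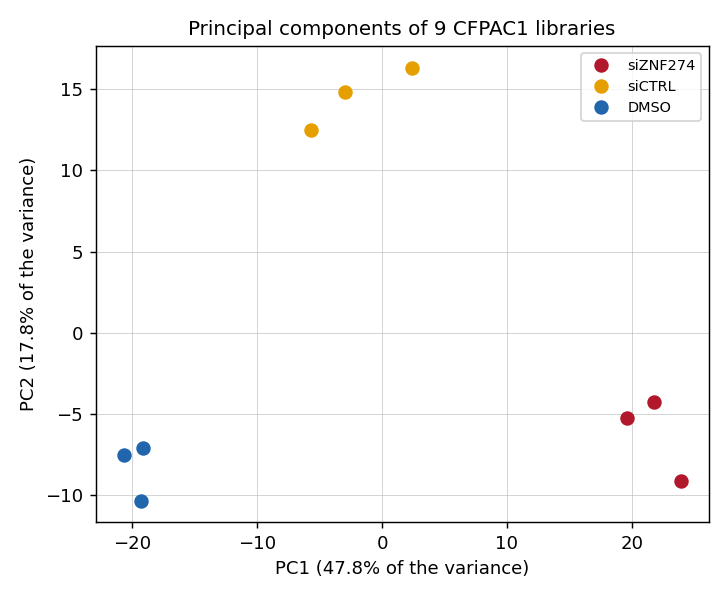
Principal components 1 and 2 of the 9 CFPAC1 libraries (log2 CPM of the tested genes), each point 1 library, with the share of the variance on each axis. The siZNF274-labelled libraries lie between 19.6 and 23.9 on component 1, the siCTRL libraries between -5.68 and 2.37 and the DMSO libraries between -20.7 and -19.1, while component 2 sets the siCTRL libraries (12.5 to 16.3) apart from the rest.

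Interferon-stimulated genes were higher in the siZNF274-labelled libraries than in DMSO, and they were so in the siCTRL libraries too. Of 42 tested members, 40 rose and 1 fell in the siZNF274-labelled libraries against DMSO, beside 15.9% and 18.2% of all tested genes, with a median log2 fold change of 1.08. In siCTRL against DMSO, 39 rose and 0 fell by edgeR, beside 7.3% and 8.22% of all tested genes, with a median of 1.07. The direct test of siZNF274-labelled against siCTRL libraries called 6 members higher and 5 lower, beside 11.6% and 13.2% of all tested genes, with a median of -0.02. With the replicate number as a block it called 9 members higher and 5 lower, and 2252 higher and 2476 lower of all 18103 tested genes.

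Among the effectors, IFI6 (ENSG00000126709.16, chromosome 1, 27666064 to 27672212, hg38), a mitochondrial protein that delays apoptosis in infected cells, had 100.3, 145 and 135 CPM in the siZNF274-labelled libraries, 57.8, 106 and 126 CPM in siCTRL and 11.5, 12.9 and 19 CPM in DMSO. Both siRNA groups lay entirely above DMSO and overlapped each other, and the rise over DMSO was 8.77-fold (log2 fold change 3.13, SE 0.246, edgeR adjusted p = 7.24e-08). IFI44L had 83.1, 111 and 101 CPM in the siZNF274-labelled libraries, 81.8, 96.1 and 88.3 CPM in siCTRL and 16.5, 15.3 and 16.4 CPM in DMSO. The 6 siRNA libraries lay close together, all far above the 3 DMSO libraries (log2 fold change 2.61, SE 0.117, edgeR adjusted p = 5.39e-10). RSAD2, the antiviral enzyme viperin, had 15.9, 18.4 and 18.2 CPM in the siZNF274-labelled libraries, 12.3, 13.4 and 15.7 CPM in siCTRL and 3.06, 3.26 and 3.98 CPM in DMSO. IFI27 had 492, 619 and 591 CPM in the siZNF274-labelled libraries, 336, 516 and 535 CPM in siCTRL and 116, 116 and 144 CPM in DMSO. For both genes all 6 siRNA libraries exceeded all 3 DMSO libraries, and the direct test between the siRNA groups did not pass (edgeR, adjusted p = 0.0703 for RSAD2 and 0.131 for IFI27). With the replicate number as a block, IFI27 and IFI6 were called higher than siCTRL (edgeR, adjusted p = 0.0358 and 0.0495). OAS2, which makes the second messenger that activates RNase L, had 79.7, 121 and 111 CPM in the siZNF274-labelled libraries, 105, 134 and 126 CPM in siCTRL and 25.9, 26.6 and 27.7 CPM in DMSO. The siRNA groups again overlapped above DMSO.

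A few members separated the siRNA groups. MX1, the GTPase that blocks influenza virus, had 119, 179 and 162 CPM in the siZNF274-labelled libraries, 236, 313 and 279.8 CPM in siCTRL and 57.9, 61.8 and 69.6 CPM in DMSO. The siZNF274-labelled libraries sat between the other groups, above DMSO (log2 fold change 1.28, SE 0.138, edgeR adjusted p = 2.35e-06) and below siCTRL (log2 fold change -0.85, edgeR adjusted p = 2.47e-04). IFITM1, which hinders viral entry and has close paralogs that can share reads, had 63.6, 83.4 and 83.8 CPM in the siZNF274-labelled libraries, 32.3, 51.7 and 55.01 CPM in siCTRL and 14.4, 14.1 and 13.4 CPM in DMSO. Here the siZNF274-labelled libraries were the highest and none overlapped with another group (edgeR, adjusted p = 0.00192 against siCTRL). The member that fell was SAMD9 (log2 fold change -0.17), a call lost under upper quartile scaling and without any 1 of siZNF274 replicates 1, 2 and 3 and DMSO replicates 1 and 3 (log2 fold changes from -0.18 to -0.14).

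Promoter stretches of interferon-stimulated genes are shown because these genes moved together. Only members holding a whole match to the pattern below before the start were considered, so a match was a condition of being shown. The stretches are of those with the largest rises among such members. They come from RefSeq (GRCh38.p14), run 5′ to 3′ on the strand of the gene, and carry in capitals, on either strand, each match, where it lies whole in the stretch, to the interferon-stimulated response element pattern of GAAA, any 2 bases and GAAA. The IFI6 stretch is chr1:27672263-27672362 (minus strand), that of IFI44L chr1:78620239-78620338 (plus), that of IFITM1 chr11:313940-314039 (plus) and that of IFI27 chr14:94110589-94110688 (plus).
IFI6: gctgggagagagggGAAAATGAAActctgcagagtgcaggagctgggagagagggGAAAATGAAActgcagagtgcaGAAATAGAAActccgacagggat
IFI44L: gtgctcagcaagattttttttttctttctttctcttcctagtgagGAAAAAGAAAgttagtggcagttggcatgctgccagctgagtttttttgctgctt
IFITM1: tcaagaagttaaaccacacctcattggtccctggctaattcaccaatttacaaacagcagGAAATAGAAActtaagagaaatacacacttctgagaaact
IFI27: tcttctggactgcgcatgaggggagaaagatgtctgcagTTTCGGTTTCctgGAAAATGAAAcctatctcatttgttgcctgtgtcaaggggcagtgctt

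The pattern was found in 22 of the 32 interferon-stimulated genes with a promoter in the table (68.8%), against 3.65% of all 27305 promoters, in windows of 250 bases before to 50 bases after the start. In these windows IFI6 held 3 matches and IFI44L, IFITM1 and IFI27 held 2 each. One match of IFI44L lies outside its stretch, and one of IFITM1 runs past the end of its stretch and is left in lower case there. A match is a run of letters and no evidence of a bound factor.

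Ligands of the pathway that were looked up were at the edge of detection, except IFNE. Summed over 3 libraries, IFNB1 had 6 counts in the siZNF274-labelled group, 4 in siCTRL and 1 in DMSO, and IFNL1 had 6 counts in the siZNF274-labelled group, 3 in siCTRL and 1 in DMSO. IFNA1, IFNA2, IFNK and IFNG had 0 counts in all 9 libraries. IFNE had 188 counts in the siZNF274-labelled group, 224 in siCTRL and 326 in DMSO, and so was highest in DMSO. IFNAR2, a receptor chain for type I interferon, had 2510 counts in the siZNF274-labelled group, 2356 in siCTRL and 1784 in DMSO. Its partner chain IFNAR1 had the opposite order, with 11903, 12628 and 13389 counts in these groups, as did IFNLR1 with 2013, 2082 and 2424. IFNGR1 (4744, 4336 and 3935) and IFNGR2 (8512, 7805 and 6580) had the order of IFNAR2, and IL10RB had 169, 168 and 159. These sums are raw counts without scaling. These genes were looked up after the values of the list were seen.

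Sensors of nucleic acids moved in the same direction on a smaller scale. Of 12 tested, 8 rose (66.7%, beside 15.9% of all tested genes) and none fell against DMSO in the siZNF274-labelled libraries by edgeR (median log2 fold change 0.41). However, 1 member was lower at an unadjusted p under 0.05, by DESeq2 and without DMSO replicate 3. The siCTRL libraries had 8 called higher (66.7%, beside 7.3% of all) and 0 lower by edgeR against DMSO, with 2 lower at an unadjusted p under 0.05. STING1, the adaptor of DNA sensing, had 76.1, 72.8 and 69.2 CPM in the siZNF274-labelled libraries, 50.5, 52.95 and 54.6 CPM in siCTRL and 43.9, 48.4 and 41.8 CPM in DMSO, with every siZNF274-labelled library above all others (log2 fold change 0.70, SE 0.0609, edgeR adjusted p = 2.28e-07). DHX58, a regulator of RIG-I and MDA5, had a mean of 30.3 ± 1.44 CPM in the siZNF274-labelled libraries, 22.1 ± 3.17 CPM in siCTRL and 12.5 ± 0.560 CPM in DMSO (SD, n = 3 each, as in all such values). IFIH1, which encodes MDA5, had 29.4 ± 0.784 CPM in the siZNF274-labelled libraries, 32.4 ± 1.68 CPM in siCTRL and 20 ± 1.01 CPM in DMSO, and its siZNF274-labelled and siCTRL levels were not called apart (edgeR, adjusted p = 0.116).

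Genes of antigen presentation rose in both siRNA groups and further in the siZNF274-labelled one. Of 28 tested members, 25 rose (89.3%, beside 15.9% of all tested genes) and none fell against DMSO (edgeR, median 0.57 log2). In siCTRL against DMSO 19 rose (67.9%, beside 7.3% of all, median 0.41). The direct test called 10 higher (35.7%, beside 11.6% of all) and 0 lower than in siCTRL (median 0.12). HLA-B, a heavy chain of the class I complex, had 654, 624 and 613 CPM in the siZNF274-labelled libraries, 434, 512 and 555 CPM in siCTRL and 273, 280.2 and 326 CPM in DMSO. Its 3 groups did not overlap and stepped down in the order given (log2 fold change 1.10, SE 0.0815, edgeR adjusted p = 3.66e-08, and adjusted p = 0.00641 against siCTRL). B2M, the shared light chain, had 1466, 1342 and 1323 CPM in the siZNF274-labelled libraries, 1150, 1219 and 1175 CPM in siCTRL and 926, 878 and 866 CPM in DMSO, again without overlap. HLA-F had a mean of 39.6 ± 3.45 CPM in the siZNF274-labelled libraries, 32.4 ± 5.63 CPM in siCTRL and 14.6 ± 1.79 CPM in DMSO (SD, n = 3 each). NLRC5, the transactivator of class I genes, averaged 30.4 ± 2.21 CPM in the siZNF274-labelled libraries, 28.7 ± 2.04 CPM in siCTRL and 18.3 ± 0.628 CPM in DMSO. HLA genes resemble one another and no source used here says how shared reads were handled, so single values are uncertain. CD274, the checkpoint ligand PD-L1, was not called (log2 fold change -0.11, edgeR adjusted p = 0.278).

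**Figure D2:**
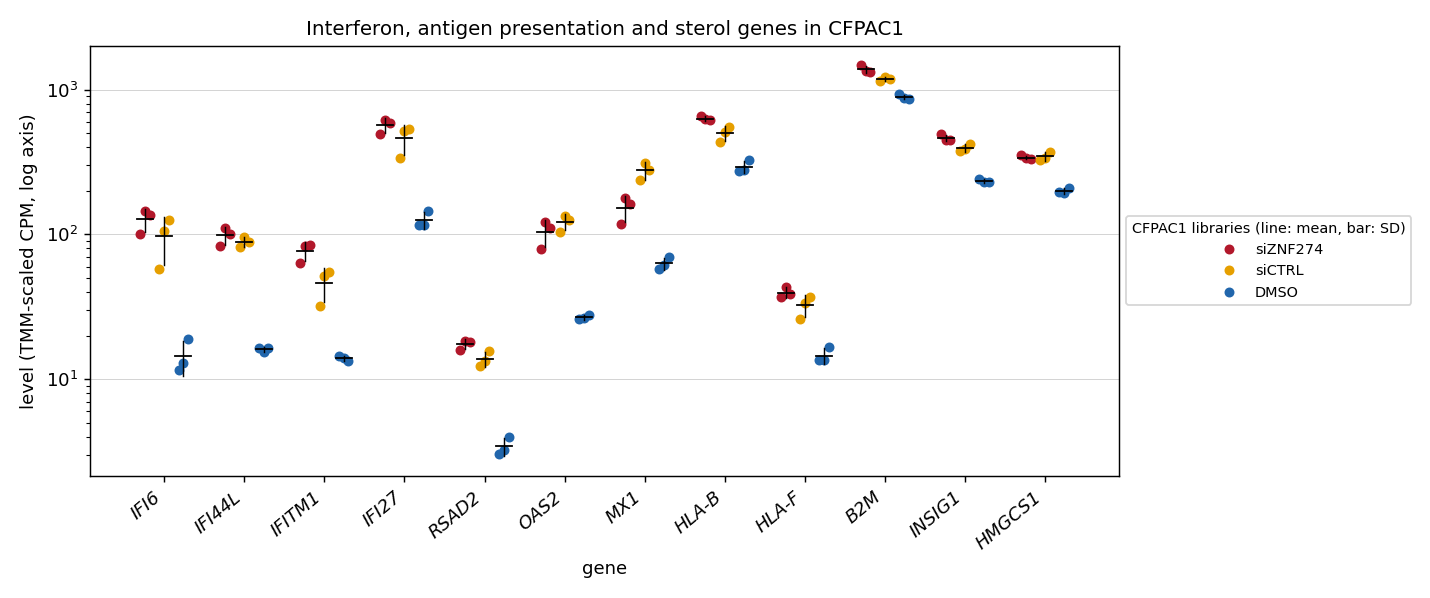
Levels (TMM-scaled CPM, log axis) of interferon, antigen presentation and sterol genes in each library of the siZNF274, siCTRL and DMSO groups of CFPAC1, left to right within a gene, with the mean as a line and the SD as a bar (n = 3 each). For IFI6 the siZNF274-labelled libraries reach 145 CPM and the DMSO libraries 19 CPM, and the siCTRL libraries of MX1 lie above those of both other groups.

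Lipid synthesis formed another change seen in both siRNA groups. Of 34 tested genes of cholesterol and fatty acid synthesis, 25 rose and 1 fell in the siZNF274-labelled libraries against DMSO (median 0.35). These were 73.5% and 2.94%, beside 15.9% and 18.2% of all tested genes. In siCTRL against DMSO 24 rose (70.6%, beside 7.3% of all) and 0 fell (median 0.27). By the direct test 9 were higher and 5 lower than in siCTRL (26.5% and 14.7%, beside 11.6% and 13.2% of all). INSIG1, which holds the sterol sensor in the endoplasmic reticulum, had 490.0, 450.3 and 447 CPM in the siZNF274-labelled libraries, 374, 386 and 420.3 CPM in siCTRL and 241, 229.9 and 231 CPM in DMSO. The groups stepped down without overlap (log2 fold change 0.98, SE 0.0564, edgeR adjusted p = 3.06e-09). HMGCS1, the enzyme ahead of HMG-CoA reductase, had 350.4, 335 and 332 CPM in the siZNF274-labelled libraries, 327, 338 and 371 CPM in siCTRL and 195, 193 and 209 CPM in DMSO, and the siRNA groups overlapped above DMSO (log2 fold change 0.77, SE 0.0585, edgeR adjusted p = 5.11e-08). SCD, the desaturase of stearate and the member with the most counts, had 3833, 3833 and 3935 CPM in the siZNF274-labelled libraries, 3056, 3209 and 3440 CPM in siCTRL and 2256, 2402 and 2221 CPM in DMSO. The sterol pattern TCACNCCAC was present in 1 of 26 listed promoters (3.85%) and in 1.15% of all promoters.

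Antioxidant, hypoxia and secretory stress genes rose in part. Of 29 targets of the transcription factor NRF2, 11 rose (37.9%, beside 15.9% of all tested genes) and 0 fell against DMSO by edgeR (1 was called lower without siZNF274 replicate 1). In siCTRL against DMSO 13 were higher and 1 lower (44.8% and 3.45%, beside 7.3% and 8.22% of all). AKR1B10, an aldo-keto reductase, had 273, 158 and 159 CPM in the siZNF274-labelled libraries, 188, 122 and 135 CPM in siCTRL and 57.3, 52.6 and 60.5 CPM in DMSO. FTL, the ferritin light chain, had 2826, 1944 and 2010 CPM in the siZNF274-labelled libraries, 1807, 1529 and 1474 CPM in siCTRL and 1046, 1042 and 1198 CPM in DMSO. In both genes siZNF274 replicate 1 was the highest library and DMSO lay below both siRNA groups without overlap. HMOX1, a further classical target, was not called (log2 fold change 0.17). Of 37 genes of hypoxia and glycolysis, 18 rose and 2 fell (48.6% and 5.41%, beside 15.9% and 18.2% of all tested genes). In siCTRL against DMSO 14 rose and 1 fell (37.8% and 2.7%, beside 7.3% and 8.22% of all). CA12, a carbonic anhydrase at the cell surface, had 52.4, 43.97 and 43.9 CPM in the siZNF274-labelled libraries, 30.6, 25.4 and 29.1 CPM in siCTRL and 11.9, 13.8 and 11.2 CPM in DMSO, 3 groups without overlap (log2 fold change 1.93, SE 0.0935, edgeR adjusted p = 1e-09). HIF1A was not called (log2 fold change 0.11). Of 27 genes of the unfolded protein response, 14 rose and 2 fell (51.9% and 7.41%, beside 15.9% and 18.2% of all tested genes, median 0.16). XBP1 was among the rises, at 158 ± 5.04 CPM in the siZNF274-labelled libraries, 159.9 ± 9.99 CPM in siCTRL and 118 ± 5.87 CPM in DMSO.

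The rule for genes shared with the control siRNA named those that were called the same way in both siRNA groups against DMSO and not called between them. Besides the interferon genes it named FGB, a fibrinogen chain made in the acute phase, with 44.8, 32.97 and 32.9 CPM in the siZNF274-labelled libraries, 53.01, 35.05 and 35.3 CPM in siCTRL and 9.39, 8.96 and 8.90 CPM in DMSO. MUC5B, a gel-forming mucin, had a mean of 9.37 ± 0.874 CPM in the siZNF274-labelled libraries, 10.4 ± 4.64 CPM in siCTRL and 2.48 ± 0.779 CPM in DMSO. Both lay lowest in DMSO without overlap. On the falling side, LBH had 17.5, 14.3 and 12.8 CPM in the siZNF274-labelled libraries, 18.03, 13.7 and 13.2 CPM in siCTRL and 46.6, 42.02 and 46.5 CPM in DMSO. TAGLN, an actin-binding protein of smooth muscle, had 5.37, 6.002 and 5.13 CPM in the siZNF274-labelled libraries, 5.23, 4.43 and 4.74 CPM in siCTRL and 15.7, 15.5 and 15.98 CPM in DMSO. HBEGF, a ligand of the EGF receptor, had 47.1, 39.99 and 40.8 CPM in the siZNF274-labelled libraries, 51.05, 49.2 and 42.9 CPM in siCTRL and 109, 98.1 and 102 CPM in DMSO. In all 3 genes the DMSO libraries stood far above 6 overlapping siRNA libraries, with log2 fold changes against DMSO of -1.60 for LBH, -1.51 for TAGLN and -1.27 for HBEGF. MMP24, DIO2, EDN2, FAT3, PSG4, CDK15 and ATG9B completed the falls (log2 fold changes from -2.75 to -1.25), and CCDC194, FBXO39 and P2RY6 the rises (from 2.21 to 2.35). Their direction was fixed by the rule and is given as a description.

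Genes of DNA replication fell in the siZNF274-labelled libraries against both controls. Of 49 tested, 42 fell (85.7%, beside 18.2% of all tested genes) and none rose against DMSO by edgeR (median -0.28). The direct test against siCTRL called 41 lower (83.7%, beside 13.2% of all) and 1 higher (median -0.31). In siCTRL against DMSO, 3 were called lower (6.12%, beside 8.22% of all) and 0 higher by edgeR (8 and 4 at an unadjusted p under 0.05, median -0.01). The falls were modest in size. RFC2 (ENSG00000049541.11, chromosome 7, 74231499 to 74254458, hg38), a subunit of the clamp loader, had 35.2, 36.2 and 38.3 CPM in the siZNF274-labelled libraries, 73.7, 70.1 and 61.4 CPM in siCTRL and 69.2, 65.5 and 72.1 CPM in DMSO. Its siZNF274-labelled libraries stood at about the 0.531-fold level of DMSO, and siCTRL and DMSO overlapped (log2 fold change -0.91, SE 0.0665, edgeR adjusted p = 3.23e-08). MCM4, a subunit of the replicative helicase, had 145, 150.1 and 157 CPM in the siZNF274-labelled libraries, 269, 237 and 208 CPM in siCTRL and 251, 235 and 245 CPM in DMSO, with the same arrangement (log2 fold change -0.69, SE 0.0718, edgeR adjusted p = 1.6e-06). E2F1, the transcription factor of the G1/S transition, had 60.8, 64.9 and 65.5 CPM in the siZNF274-labelled libraries, 73.4, 79.5 and 70.9 CPM in siCTRL and 83.5, 84.3 and 92.5 CPM in DMSO. Its siCTRL libraries took a middle place and were also below DMSO (edgeR, adjusted p = 0.0162). PCNA, the sliding clamp, had 140.3 ± 5.86 CPM in the siZNF274-labelled libraries, 172 ± 12.1 CPM in siCTRL and 179.7 ± 16.5 CPM in DMSO. POLD1, the catalytic subunit of DNA polymerase delta, was not called against DMSO (log2 fold change 0.04).

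Mitotic genes fell too. Of 50 tested, 37 fell (74%, beside 18.2% of all tested genes) and none rose against DMSO by edgeR (median -0.22, and 1 member was called higher with no filter on low counts). Against siCTRL 28 were lower (56%, beside 13.2% of all) and 0 higher. In siCTRL against DMSO 4 were lower (8%, near the 8.22% of all) and 0 higher. FOXM1, the transcription factor of the G2/M program, had 105, 104 and 114 CPM in the siZNF274-labelled libraries, 162, 141 and 126 CPM in siCTRL and 161, 152 and 154 CPM in DMSO (log2 fold change -0.53, SE 0.0736, edgeR adjusted p = 3.6e-05). PLK1, the mitotic polo-like kinase, had 107, 108 and 112 CPM in the siZNF274-labelled libraries, 149.6, 144 and 123 CPM in siCTRL and 150.4, 139 and 138 CPM in DMSO. In both genes all siZNF274-labelled libraries were below all others, while siCTRL and DMSO overlapped. CDK1, the mitotic kinase, was not called (log2 fold change -0.08). The short CHR pattern TTTGAA was present in 31 of 43 promoters of the list (72.1%) and in 15.4% of all promoters. Of 54 replication-dependent histone genes, many of them near-identical copies, 6 rose and 14 fell against DMSO, 11.1% and 25.9% beside 15.9% and 18.2% of all tested genes (3 rose without siZNF274 replicate 3, 2 rose without DMSO replicate 1 and 9 fell without siZNF274 replicate 2).

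Ribosome biogenesis differed in how the control siRNA stood. Of 30 genes, 11 fell (36.7%, beside 18.2% of all tested genes) and none rose against DMSO by edgeR, and 22 were lower (73.3%, beside 13.2% of all) and 0 higher against siCTRL. The siCTRL libraries themselves had 7 members higher and 1 lower than DMSO (23.3% and 3.33%, beside 7.3% and 8.22% of all). The count of falls against DMSO was 6 without siZNF274 replicate 2, 7 without siZNF274 replicate 3, 5 without DMSO replicate 1 and 6 without DMSO replicate 3, and 1 member was called higher in this last fit. UTP20, a component of the small subunit processome, had 54.4, 53.3 and 57.3 CPM in the siZNF274-labelled libraries, 95.1, 80.3 and 76.2 CPM in siCTRL and 82.3, 90.1 and 80.9 CPM in DMSO and was the member with the largest fall (log2 fold change -0.62, SE 0.0722, edgeR adjusted p = 5.81e-06). NPM1, the nucleolar chaperone, was not called against DMSO (log2 fold change -0.07), while it was called lower against siCTRL (-0.26, edgeR adjusted p = 0.00216).

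Epithelial junction genes were lower in the siZNF274-labelled libraries than in either control, with exceptions. Of 38 tested genes of epithelial adhesion and splicing, 24 fell (63.2%, beside 18.2% of all tested genes) and 3 rose against DMSO (median -0.34). Against siCTRL 22 were lower and 2 higher (57.9% and 5.26%, beside 13.2% and 11.6% of all). In siCTRL against DMSO 6 were lower and 4 higher (15.8% and 10.5%, beside 8.22% and 7.3% of all). CDH1, which encodes E-cadherin, had 244, 286 and 299.9 CPM in the siZNF274-labelled libraries, 422, 435 and 431 CPM in siCTRL and 513, 529 and 492 CPM in DMSO. Its siZNF274-labelled libraries were lowest and its DMSO libraries highest, without overlap (log2 fold change -0.89, SE 0.0638, edgeR adjusted p = 2.96e-08). CLDN1, a sealing claudin of tight junctions, had 19.8, 17.6 and 19.1 CPM in the siZNF274-labelled libraries, 48.6, 38.8 and 29.97 CPM in siCTRL and 67.2, 59.9 and 59.3 CPM in DMSO, in the same order. CLDN2, a claudin that forms cation pores, went the other way with 334, 296 and 304 CPM in the siZNF274-labelled libraries, 198, 160.3 and 140.5 CPM in siCTRL and 80.2, 78.4 and 78.95 CPM in DMSO, highest in the siZNF274-labelled and lowest in the DMSO libraries (log2 fold change 1.98, SE 0.0917, edgeR adjusted p = 6.44e-10). ESRP1, a splicing regulator of epithelial cells, had 62.9, 82.8 and 80.5 CPM in the siZNF274-labelled libraries, 107, 129 and 123 CPM in siCTRL and 125, 124 and 118 CPM in DMSO, so that siCTRL and DMSO overlapped above the siZNF274-labelled libraries.

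Of 10 ductal identity genes, 5 fell and 1 rose against DMSO (50% and 10%, beside 18.2% and 15.9% of all tested genes). The number that rose was 2 without siZNF274 replicate 2 or DMSO replicate 2. KRT7, a simple keratin of ducts, had 349, 418 and 419 CPM in the siZNF274-labelled libraries, 605, 700.3 and 617 CPM in siCTRL and 811, 792 and 820.2 CPM in DMSO, with no overlap of any 2 groups (log2 fold change -1.03, SE 0.0697, edgeR adjusted p = 1.58e-08). KRT8 had a mean of 3011 ± 111 CPM in the siZNF274-labelled libraries, 3574 ± 241 CPM in siCTRL and 3724 ± 69.6 CPM in DMSO. EPCAM, an epithelial adhesion protein, had 222, 235 and 244 CPM in the siZNF274-labelled libraries, 279.9, 286 and 298 CPM in siCTRL and 297, 280.2 and 323 CPM in DMSO. The summed level of the 10 genes was 8459 to 8930 CPM of the total count in the siZNF274-labelled libraries, 9261 to 10440 in siCTRL and 9671 to 10050 in DMSO.

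Squamous and desmosomal genes were lower in many members, and a few rose. Of 36 tested, 20 fell (55.6%, beside 18.2% of all tested genes) and 4 rose against DMSO (median -0.52, and -0.32 over members of at least 1 CPM). Against siCTRL 19 were lower and 3 higher (52.8% and 8.33%, beside 13.2% and 11.6% of all). In siCTRL against DMSO 8 were lower and 6 higher (22.2% and 16.7%, beside 8.22% and 7.3% of all). TRIM29, a squamous marker gene, had 2.95, 2.95 and 2.59 CPM in the siZNF274-labelled libraries, 7.49, 6.63 and 6.33 CPM in siCTRL and 11.6, 11.7 and 9.65 CPM in DMSO (log2 fold change -1.96, SE 0.109, edgeR adjusted p = 2.17e-09). JUP, the plaque protein plakoglobin, had 575, 622 and 627 CPM in the siZNF274-labelled libraries, 728, 817 and 794 CPM in siCTRL and 907, 968 and 923 CPM in DMSO (log2 fold change -0.62, SE 0.0545, edgeR adjusted p = 2.72e-07). In both genes the siZNF274-labelled libraries were lowest, siCTRL intermediate and DMSO highest, without overlap. DSP, the desmosomal linker desmoplakin, had 174 ± 10.4 CPM in the siZNF274-labelled libraries, 246 ± 35.3 CPM in siCTRL and 273 ± 38.7 CPM in DMSO. SERPINB3 and SERPINB4, neighbouring and near-identical serpins whose reads may be split between them, rose instead, with SERPINB3 at 4.41 ± 0.663 CPM in the siZNF274-labelled libraries, 6.85 ± 1.16 CPM in siCTRL and 1.07 ± 0.146 CPM in DMSO. The basal-like PDAC list had 5 of 22 members higher and 9 lower against DMSO (22.7% and 40.9%, beside 15.9% and 18.2% of all tested genes). TNS4, a tensin of focal adhesions on that list, had 159, 194 and 193 CPM in the siZNF274-labelled libraries, 436, 459 and 418 CPM in siCTRL and 481, 490.5 and 456 CPM in DMSO. Its siCTRL and DMSO libraries overlapped at more than the level of every siZNF274-labelled library (log2 fold change -1.39, SE 0.0693, edgeR adjusted p = 1.22e-09).

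**Figure D3:**
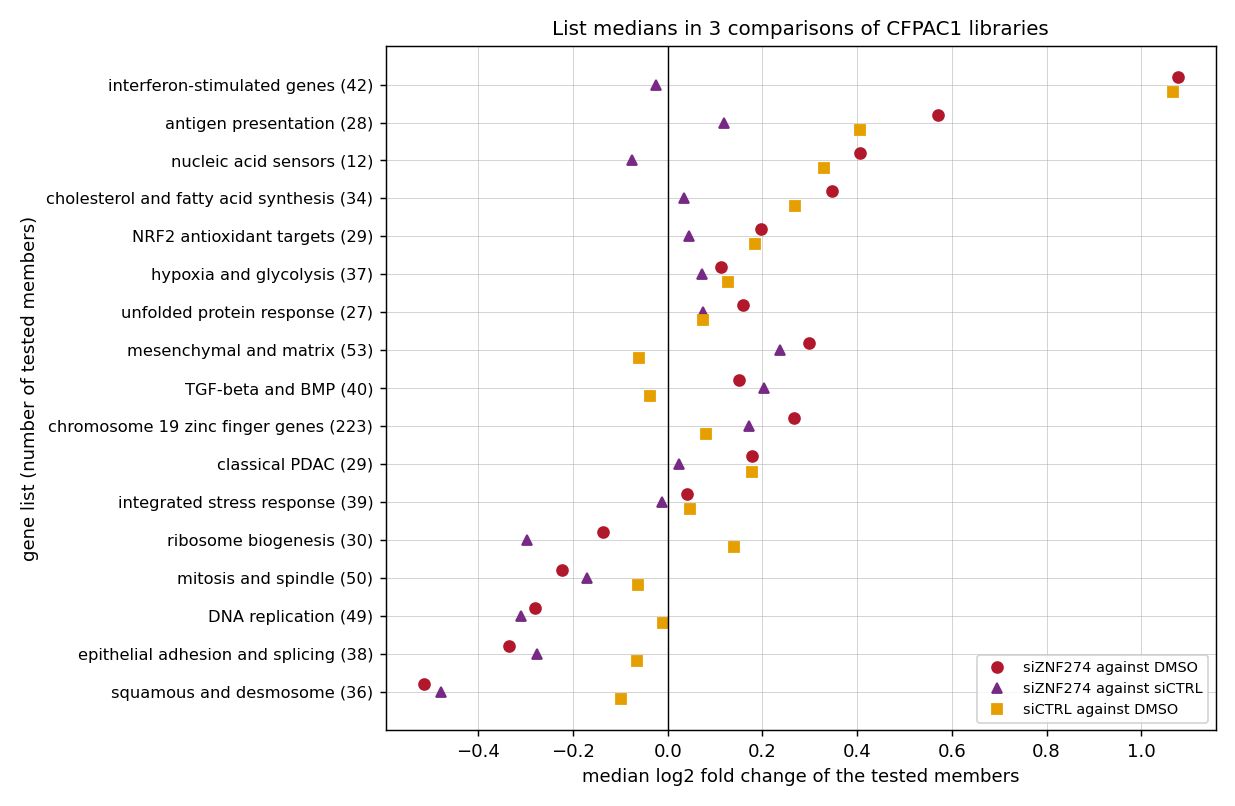
Median log2 fold change of the tested members of 17 gene lists (number of members in brackets) in siZNF274 against DMSO, siZNF274 against siCTRL and siCTRL against DMSO, each a point, with 0 as a black line. Interferon-stimulated genes lie at 1.08, -0.02 and 1.07 in these comparisons, DNA replication genes at -0.28, -0.31 and -0.01.

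Mesenchymal and matrix genes moved in both directions. Of 53 tested, 22 rose and 16 fell against DMSO, 41.5% and 30.2% beside 15.9% and 18.2% of all tested genes (median 0.30, 0.17 without siZNF274 replicate 1). In siCTRL against DMSO 12 rose and 17 fell (22.6% and 32.1%, beside 7.3% and 8.22% of all, median -0.06). Against siCTRL 24 were higher and 7 lower (45.3% and 13.2%, beside 11.6% and 13.2% of all, median 0.24). The choice of control thus changes the balance of this list. ITGB3, the beta chain of the vitronectin receptor, had 127, 99.04 and 98.8 CPM in the siZNF274-labelled libraries, 43.2, 38.3 and 44.5 CPM in siCTRL and 27.5, 29.9 and 30.7 CPM in DMSO. FN1, the matrix protein fibronectin, had 92.4, 87.2 and 90.4 CPM in the siZNF274-labelled libraries, 39.9, 34.98 and 38.2 CPM in siCTRL and 29.4, 35.6 and 27.5 CPM in DMSO. For both, the siZNF274-labelled libraries exceeded every control library (log2 fold change 1.88, SE 0.0948, edgeR adjusted p = 1.22e-09 for ITGB3 and log2 fold change 1.54, SE 0.0819, edgeR adjusted p = 1.59e-09 for FN1), and for FN1 siCTRL and DMSO overlapped. VIM, the intermediate filament vimentin, was not called against DMSO (log2 fold change 0.04, and -0.04 without siZNF274 replicate 1), whereas it was called higher against siCTRL (0.32, edgeR adjusted p = 0.0220). SNAI2 and TIMP2 fell (log2 fold change -0.91 and -0.77).

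Receptors, antagonists and targets of TGF-beta and BMP signalling moved unequally. Of 40 tested, 17 rose and 9 fell against DMSO (42.5% and 22.5%, beside 15.9% and 18.2% of all tested genes). In siCTRL against DMSO 7 rose and 9 fell (17.5% and 22.5%, beside 7.3% and 8.22% of all). Against siCTRL 18 were higher and 6 lower (45% and 15%, beside 11.6% and 13.2% of all). TGFBR3 (ENSG00000069702.11, chromosome 1, 91680343 to 91906335, hg38), the co-receptor betaglycan, had 97.03, 81.9 and 83.4 CPM in the siZNF274-labelled libraries, 33.6, 31.3 and 37.7 CPM in siCTRL and 23.4, 26.2 and 21.1 CPM in DMSO, with no overlap of the siZNF274-labelled libraries and either control (log2 fold change 1.89, SE 0.0862, edgeR adjusted p = 5.66e-10). ENG, the related co-receptor endoglin, had 16.7, 12.3 and 12.2 CPM in the siZNF274-labelled libraries, 3.86, 3.77 and 4.42 CPM in siCTRL and 2.93, 2.10 and 2.12 CPM in DMSO, a 5.75-fold rise over DMSO (log2 fold change 2.52, SE 0.158, edgeR adjusted p = 7.08e-09). Among the ligands TGFB2 fell, with 318, 383 and 388 CPM in the siZNF274-labelled libraries, 472, 542 and 553 CPM in siCTRL and 649.7, 685 and 572 CPM in DMSO. FST, the secreted follistatin that traps activins, had 3.002, 2.86 and 3.31 CPM in the siZNF274-labelled libraries, 8.28, 6.93 and 6.46 CPM in siCTRL and 12.4, 9.55 and 11.7 CPM in DMSO (log2 fold change -1.87, SE 0.126, edgeR adjusted p = 1.5e-08). ID1, a target of BMP signalling, had 141 ± 22.5 CPM in the siZNF274-labelled libraries, 108 ± 12.4 CPM in siCTRL and 71.6 ± 3.55 CPM in DMSO.

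KDR, the main receptor of VEGF, was higher than DMSO and higher still against siCTRL. It had 19.4, 12.8 and 13.6 CPM in the siZNF274-labelled libraries, 3.33, 2.34 and 2.20 CPM in siCTRL and 5.85, 6.91 and 5.54 CPM in DMSO. The siZNF274-labelled libraries were highest, DMSO in the middle and siCTRL lowest, with no overlap. The fold was therefore 2.50 against DMSO (log2 fold change 1.32, SE 0.154, edgeR adjusted p = 5.83e-06) and 5.81 against siCTRL, while siCTRL lay below DMSO (log2 fold change -1.22). KDR is also an endothelial marker. The 11 endothelial markers summed to 38.5 to 41.2 CPM of the total count in the siZNF274-labelled libraries, 18.4 to 20.7 in siCTRL and 25.3 to 26.0 in DMSO. Of 5 tested members 4 were called higher than DMSO (80%, beside 15.9% of all tested genes), and FLT1 was at 0. Their part in the result was not tested. TP53INP1, a stress-induced partner of p53, had the same order, with 7.98 ± 0.344 CPM in the siZNF274-labelled libraries, 2.83 ± 0.102 CPM in siCTRL and 3.89 ± 0.444 CPM in DMSO.

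**Figure D4:**
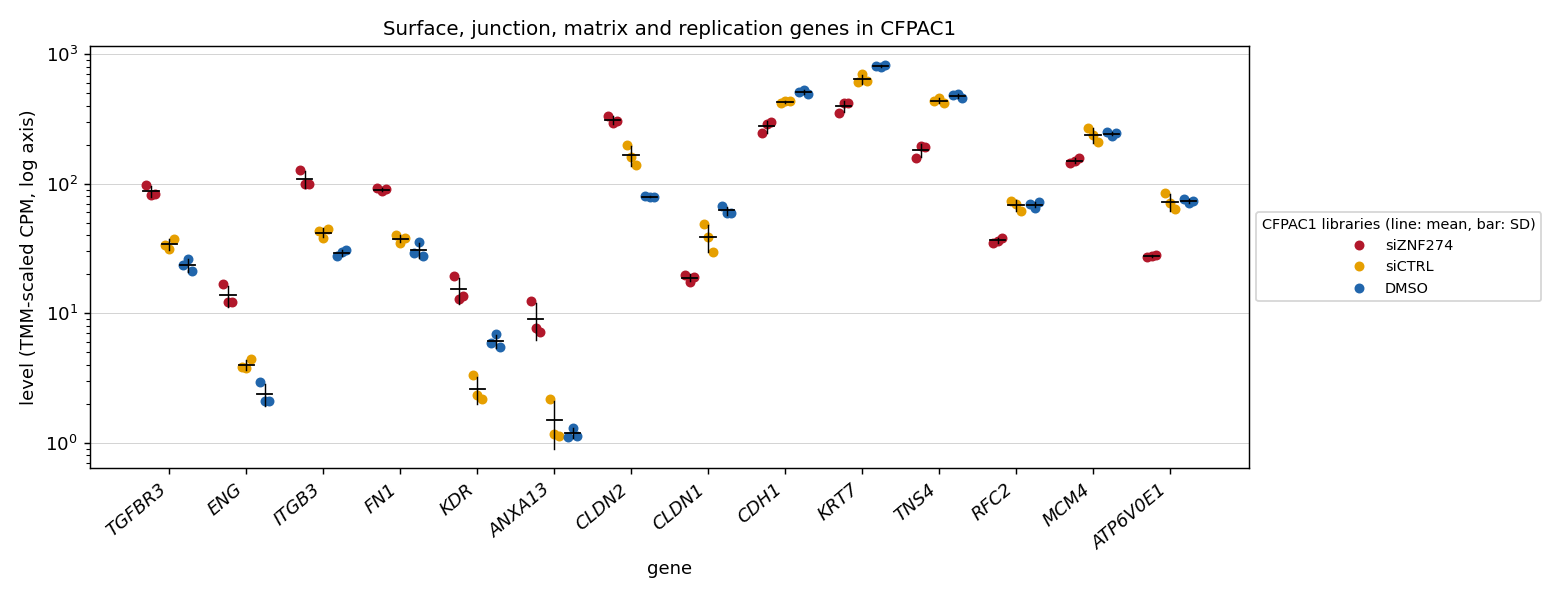
Levels (TMM-scaled CPM, log axis) of surface, junction, matrix and replication genes in each library of the siZNF274, siCTRL and DMSO groups of CFPAC1, left to right within a gene, with the mean as a line and the SD as a bar (n = 3 each). TGFBR3 averages 87.4 CPM in the siZNF274-labelled libraries, 34.2 CPM in siCTRL and 23.6 CPM in DMSO, and for KDR the DMSO libraries lie between the other groups.

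Genes of the classical PDAC subtype gave another case in which siCTRL itself was shifted. Of 29 tested, 12 rose and 5 fell against DMSO (41.4% and 17.2%, beside 15.9% and 18.2% of all tested genes), and 11 rose and 1 fell in siCTRL against DMSO (37.9% and 3.45%, beside 7.3% and 8.22%). CEACAM5, the carcinoembryonic antigen, had 17.6, 22.9 and 22 CPM in the siZNF274-labelled libraries, 40.9, 48.5 and 58.6 CPM in siCTRL and 24.7, 25.7 and 19.3 CPM in DMSO. The siZNF274-labelled and DMSO libraries overlapped and were not called apart (log2 fold change -0.16, edgeR adjusted p = 0.373), and siCTRL alone was high (log2 fold change 1.08 over DMSO, edgeR adjusted p = 1.67e-05). CEACAM6, its neighbour and paralog, had 452, 360.5 and 351 CPM in the siZNF274-labelled libraries, 919, 735 and 768 CPM in siCTRL and 598, 550.3 and 542 CPM in DMSO, and was lower than DMSO (log2 fold change -0.54, SE 0.0908, edgeR adjusted p = 2.35e-04). KRT20, an intestinal keratin, had 36.9, 21.2 and 22.7 CPM in the siZNF274-labelled libraries, 13.1, 8.59 and 9.66 CPM in siCTRL and 6.47, 7.06 and 7.95 CPM in DMSO and rose (log2 fold change 1.91, SE 0.185, edgeR adjusted p = 7.93e-07), siZNF274 replicate 1 being the highest. TSPAN8, a tetraspanin, had 65.7 ± 7.25 CPM in the siZNF274-labelled libraries, 41.01 ± 2.74 CPM in siCTRL and 32.8 ± 1.56 CPM in DMSO. GATA6, a defining transcription factor of the subtype, rose slightly (log2 fold change 0.30), and HNF4A was not called (-0.13).

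Zinc finger genes of chromosome 19, where the clusters bound by ZNF274 lie, were higher in the siZNF274-labelled libraries than in DMSO in many members. Of 223 tested protein-coding ZNF genes of the chromosome, ZNF274 left out, 103 rose (46.2%) and 6 fell (2.69%), beside 15.9% and 18.2% of all tested genes, with a median log2 fold change of 0.27. In siCTRL against DMSO 18 rose and 2 fell (8.07% and 0.897%, beside 7.3% and 8.22% of all, median 0.08). The direct test called 60 higher and 5 lower than siCTRL (26.9% and 2.24%, beside 11.6% and 13.2% of all, median 0.17). Of 241 ZNF genes on other chromosomes, 39 rose and 29 fell against DMSO (median 0.01), and of 824 other protein-coding genes of chromosome 19, 139 rose and 145 fell (median 0.03). The number of listed members that fell was 2 or 3 without any 1 of siZNF274 replicates 1, 2 and 3 and DMSO replicates 1 and 2, and 3 under RLE or upper quartile scaling. These genes drew few counts, with a median of 8.92 CPM, not corrected for length, against 26.1 CPM for all tested protein-coding genes, and they form a family of similar sequences, so that single values carry the uncertainty of shared reads.

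ZNF486 (ENSG00000256229.8, chromosome 19, 20167214 to 20200488, hg38) had 6.22, 6.03 and 6.21 CPM in the siZNF274-labelled libraries, 3.17, 2.88 and 3.15 CPM in siCTRL and 2.10, 2.05 and 1.83 CPM in DMSO. Its groups did not overlap, with the siZNF274-labelled libraries highest (log2 fold change 1.62, SE 0.128, edgeR adjusted p = 7.62e-08). ZNF850 had 25.6, 23.8 and 23.6 CPM in the siZNF274-labelled libraries, 12.2, 12.1 and 14.1 CPM in siCTRL and 11.9, 11.7 and 13.8 CPM in DMSO, and siCTRL and DMSO overlapped at about the 0.513-fold level of the siZNF274-labelled libraries (log2 fold change 0.96, SE 0.0819, edgeR adjusted p = 1.82e-07). ZNF682, ZNF781 and ZNF90, which the rule also named, were at or under about 1 CPM, with log2 fold changes of 2.00, 1.58 and 1.39. ZNF114 was the member with the largest fall, with 8.10, 8.36 and 9.38 CPM in the siZNF274-labelled libraries, 17.8, 12.9 and 12.4 CPM in siCTRL and 18.6, 18.2 and 16.99 CPM in DMSO (log2 fold change -1.05, SE 0.114, edgeR adjusted p = 2.53e-06). ZNF146, the member with the most counts, was not called (log2 fold change 0.04). ZNF850 and ZNF114 were picked after their values were seen.

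**Figure D5:**
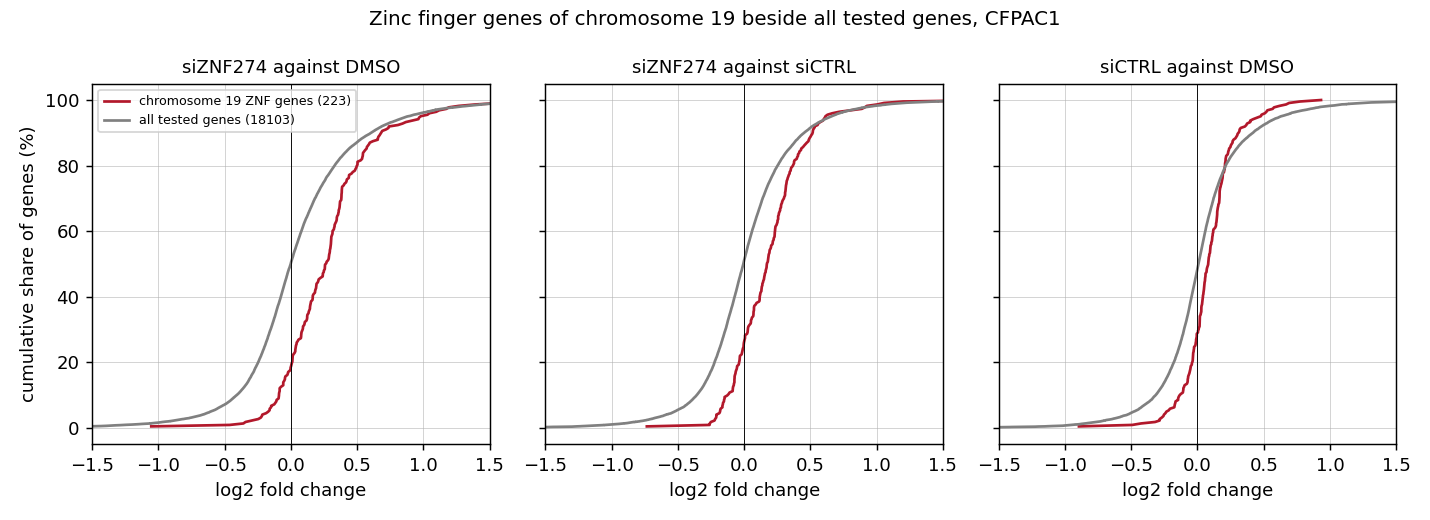
Cumulative share of genes (%) by log2 fold change in siZNF274 against DMSO, siZNF274 against siCTRL and siCTRL against DMSO, for 223 chromosome 19 ZNF genes and for all 18103 tested genes of CFPAC1. The curve of the ZNF genes lies to the right of that of all genes around its median in each panel, with medians of 0.27, 0.17 and 0.08, and the axis is cut at -1.5 and 1.5.

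Apart from IFI6, the protein-coding genes with the largest rises by size had means under 10 CPM in the siZNF274-labelled libraries. SERPINA3, the acute-phase inhibitor alpha-1-antichymotrypsin, had 10.4, 6.53 and 4.82 CPM in the siZNF274-labelled libraries, 3.71, 2.79 and 3.42 CPM in siCTRL and 0.985, 0.539 and 0.371 CPM in DMSO, an 11.4-fold rise over DMSO (log2 fold change 3.51, SE 0.364, edgeR adjusted p = 1.59e-06). HIF3A, a member of the hypoxia-inducible factor family, had 1.87, 2.02 and 2.73 CPM in the siZNF274-labelled libraries, 0.457, 1.05 and 0.768 CPM in siCTRL and 0.239, 0.231 and 0.212 CPM in DMSO. In both genes siCTRL lay between the other groups. ANXA13, an annexin of the intestinal epithelium, had 12.5, 7.67 and 7.20 CPM in the siZNF274-labelled libraries, 2.18, 1.17 and 1.14 CPM in siCTRL and 1.12, 1.31 and 1.14 CPM in DMSO. The siZNF274-labelled libraries were far above both controls, which overlapped (log2 fold change 2.93, SE 0.243, edgeR adjusted p = 1.37e-07). ADH6, an alcohol dehydrogenase, had a mean of 8.17 ± 1.27 CPM in the siZNF274-labelled libraries, 3.68 ± 0.644 CPM in siCTRL and 1.27 ± 0.237 CPM in DMSO, and ITGA11, an integrin chain that binds collagen, 2.26 ± 0.588 CPM in the siZNF274-labelled libraries, 0.508 ± 0.178 CPM in siCTRL and 0.245 ± 0.0808 CPM in DMSO. P3H3, NWD2, C4B, NOVA2 and C11orf96, all with means at or below 2 CPM, made up the remaining rises with log2 fold changes from 2.71 to 3.02. C4B has a near-identical neighbour, C4A, with which it may share reads.

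Among the falls by size, CAVIN1, a coat protein of caveolae, had 32.7, 39.3 and 41.3 CPM in the siZNF274-labelled libraries, 56.3, 70.2 and 61.6 CPM in siCTRL and 129, 134 and 155 CPM in DMSO (log2 fold change -1.88, SE 0.0936, edgeR adjusted p = 1.22e-09). LOXL4, a lysyl oxidase of the matrix, had 11.2, 11.5 and 11.5 CPM in the siZNF274-labelled libraries, 15.3, 16.4 and 15.04 CPM in siCTRL and 37.4, 35.7 and 42.2 CPM in DMSO (log2 fold change -1.75, SE 0.0685, edgeR adjusted p = 1.02e-10). In both the siZNF274-labelled libraries were lowest, siCTRL intermediate and DMSO highest, without overlap. ZBED2, a zinc finger repressor of interferon targets described in PDAC cells, had 1.76, 1.74 and 1.97 CPM in the siZNF274-labelled libraries, 4.95, 4.78 and 4.53 CPM in siCTRL and 9.79, 7.88 and 11.3 CPM in DMSO (log2 fold change -2.40, SE 0.145, edgeR adjusted p = 4.92e-09). IL23A, a subunit of interleukin 23, had 0.965 ± 0.147 CPM in the siZNF274-labelled libraries, 1.81 ± 0.515 CPM in siCTRL and 3.91 ± 0.582 CPM in DMSO. C6orf15, SLAMF7 and ANXA8 fell as well, with log2 fold changes of -1.80, -1.80 and -1.75.

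The rule for genes apart from both controls named, beyond those already given, C2CD4B, IL12RB1 and HHIP among the rises and IL1RL1, NMUR2, ATP6V0E1, CAPN8 and IL1RN among the falls. HHIP, an inhibitor of hedgehog ligands, had 4.40 ± 0.628 CPM in the siZNF274-labelled libraries, 1.48 ± 0.0538 CPM in siCTRL and 1.18 ± 0.295 CPM in DMSO. ATP6V0E1, a membrane subunit of the vacuolar proton pump, had 27.3, 27.6 and 28.4 CPM in the siZNF274-labelled libraries, 84.3, 70.4 and 63.2 CPM in siCTRL and 76.3, 71.2 and 73.3 CPM in DMSO. Its siZNF274-labelled libraries were close to one another and at about the 0.377-fold level of DMSO (log2 fold change -1.41, SE 0.0798, edgeR adjusted p = 2.72e-09), while siCTRL and DMSO overlapped (edgeR, adjusted p = 0.912). Of 39 lysosomal and proton pump genes, 9 rose and 11 fell, 23.1% and 28.2% beside 15.9% and 18.2% of all tested genes (6 fell without siZNF274 replicate 2 or 3 or DMSO replicate 1 or 3). IL1RL1, the receptor of interleukin 33, had 2.62, 2.57 and 2.18 CPM in the siZNF274-labelled libraries, 10.8, 11.2 and 11.2 CPM in siCTRL and 10.1, 7.34 and 8.80 CPM in DMSO, with both controls above every siZNF274-labelled library (log2 fold change -1.83, SE 0.135, edgeR adjusted p = 3.66e-08). NMUR2, a receptor of neuromedin U, had 2.11 ± 0.401 CPM in the siZNF274-labelled libraries, 7.14 ± 1.51 CPM in siCTRL and 6.08 ± 0.293 CPM in DMSO.

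Long non-coding genes made up 3887 of the tested genes, of which 318 rose (8.18%) and 201 fell (5.17%), against 2556 risen (18%) and 3085 fallen (21.7%) of 14216 protein-coding ones. LINC00326 had 7.29 ± 0.271 CPM in the siZNF274-labelled libraries, 5.22 ± 1.28 CPM in siCTRL and 1.46 ± 0.0502 CPM in DMSO (log2 fold change 2.31, SE 0.179, edgeR adjusted p = 6.2e-08). CH17-360D5.3 had 6.04 ± 1.17 CPM in the siZNF274-labelled libraries, 10.1 ± 2.59 CPM in siCTRL and 24.7 ± 1.25 CPM in DMSO and CH17-360D5.2, from the same clone by its name, 7.21 ± 1.34 CPM in the siZNF274-labelled libraries, 10.3 ± 2.14 CPM in siCTRL and 23.2 ± 1.96 CPM in DMSO. LHFPL3-AS2, CTD-2285E13.1 and LINC02574 rose, with log2 fold changes of 2.81, 2.77 and 2.31. AF064860.7 and LINC00842 fell, with log2 fold changes of -2.02 and -1.52. The library kit keeps the strand, but no source used here gives the strand setting of the counting, so antisense genes are uncertain.

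Amino acid stress genes were mixed. Of 39 genes of the integrated stress response, 12 rose and 7 fell against DMSO, 30.8% and 17.9% beside 15.9% and 18.2% of all tested genes (median 0.04). In siCTRL against DMSO 10 rose and 2 fell (25.6% and 5.13%, beside 7.3% and 8.22% of all). SLC7A5, a transporter of large neutral amino acids, had 119, 137 and 138 CPM in the siZNF274-labelled libraries, 228, 275 and 254 CPM in siCTRL and 225, 236 and 245 CPM in DMSO, lower than both controls (log2 fold change -0.84, SE 0.0694, edgeR adjusted p = 1.22e-07). ATF5 had 17.2, 14.7 and 15.3 CPM in the siZNF274-labelled libraries, 39.8, 31.96 and 23.7 CPM in siCTRL and 36.1, 37.4 and 34.7 CPM in DMSO, likewise lowest in the siZNF274-labelled libraries. DDIT4, an inhibitor of mTORC1, had 328, 340.4 and 329 CPM in the siZNF274-labelled libraries, 168, 265 and 317 CPM in siCTRL and 132, 134 and 150.0 CPM in DMSO, with siCTRL between the other groups (log2 fold change 1.26, SE 0.148, edgeR adjusted p = 6.4e-06). ATF4 was not called (log2 fold change -0.07). None of the 33 listed promoters held the ATF4 pattern TGATGNAAT, against 1.02% of all promoters.

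Of 19 transcription kinases and partners, 7 fell and 1 rose against DMSO (36.8% and 5.26%, beside 18.2% and 15.9% of all tested genes), but without siZNF274 replicate 2, siZNF274 replicate 3 or DMSO replicate 2 only 3 or 4 fell, and under upper quartile scaling 4 fell and 3 rose. CDK7, the kinase that activates cell cycle kinases and phosphorylates RNA polymerase II, had 20.1, 16.4 and 17.3 CPM in the siZNF274-labelled libraries, 21.3, 23.04 and 23.1 CPM in siCTRL and 24.5, 23.4 and 26.1 CPM in DMSO (log2 fold change -0.46, SE 0.0772, edgeR adjusted p = 2.17e-04), so that the siZNF274-labelled libraries were lowest without overlap. Of 28 p53 targets, 5 rose and 5 fell (17.9% each way), near the 15.9% and 18.2% of all tested genes. MDM2, the ligase that degrades p53, had 71.8, 74.3 and 75.4 CPM in the siZNF274-labelled libraries, 131, 124 and 127 CPM in siCTRL and 134, 137 and 132 CPM in DMSO, with siCTRL and DMSO close together and above every siZNF274-labelled library (log2 fold change -0.86, SE 0.0470, edgeR adjusted p = 1.95e-09). TNFRSF10B, a death receptor, had 334, 288 and 288 CPM in the siZNF274-labelled libraries, 195, 193 and 208 CPM in siCTRL and 166, 168 and 191 CPM in DMSO, the highest values again being those of the siZNF274-labelled libraries.

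Of 13 RNA interference genes, 2 rose and 3 fell against DMSO (15.4% and 23.1%), near the 15.9% and 18.2% of all tested genes (4 rose without DMSO replicate 2). DROSHA, the nuclear enzyme that cuts microRNA precursors, had 93.5, 86.4 and 91.5 CPM in the siZNF274-labelled libraries, 151, 127 and 115 CPM in siCTRL and 142, 135 and 118 CPM in DMSO (log2 fold change -0.54, SE 0.0854, edgeR adjusted p = 1.23e-04). DICER1, the cytoplasmic enzyme of the pathway, had 256, 237 and 238 CPM in the siZNF274-labelled libraries, 225, 203 and 194 CPM in siCTRL and 175, 179.9 and 155 CPM in DMSO (log2 fold change 0.52, SE 0.0652, edgeR adjusted p = 1.26e-05). The siZNF274-labelled libraries were thus lowest for DROSHA and highest for DICER1. Of 28 genes of the H3K9me3 machinery, 11 fell (39.3%, beside 18.2% of all tested genes) and 1, ZNF274 itself, rose. DNMT1, the maintenance methyltransferase of DNA, had 149 ± 9.48 CPM in the siZNF274-labelled libraries, 183 ± 9.09 CPM in siCTRL and 184 ± 0.790 CPM in DMSO, and UHRF1, its partner, 53.4 ± 2.10 CPM in the siZNF274-labelled libraries, 65.2 ± 5.30 CPM in siCTRL and 79.5 ± 5.35 CPM in DMSO.

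Of 40 NF-kB and cytokine genes, 9 rose and 6 fell (22.5% and 15%), near the 15.9% and 18.2% of all tested genes. ICAM1, an adhesion receptor for leukocytes, had 67.2, 48.2 and 49.7 CPM in the siZNF274-labelled libraries, 36.9, 32.1 and 33.01 CPM in siCTRL and 25.4, 25.2 and 26.9 CPM in DMSO (log2 fold change 1.09, SE 0.0995, edgeR adjusted p = 4.14e-07). IL18 had 21.5, 18.6 and 17.7 CPM in the siZNF274-labelled libraries, 35.9, 30.8 and 29.5 CPM in siCTRL and 50.3, 45.6 and 48.9 CPM in DMSO (log2 fold change -1.32, SE 0.0817, edgeR adjusted p = 6.32e-09). Of 13 drug efflux transporters, 6 rose and 3 fell (46.2% and 23.1%, beside 15.9% and 18.2% of all), so that the share of falls was near that of all genes. ABCG2 had 5.92 ± 0.903 CPM in the siZNF274-labelled libraries, 3.39 ± 0.740 CPM in siCTRL and 3.73 ± 0.595 CPM in DMSO. ABCC3, with the most counts, was not called (log2 fold change 0.10). Of 14 metallothioneins and zinc transporters, 6 rose and 1 fell (42.9% and 7.14%, beside 15.9% and 18.2% of all). SLC30A1, the zinc exporter, was among the rises, at 154 ± 15.4 CPM in the siZNF274-labelled libraries, 102 ± 5.93 CPM in siCTRL and 79.1 ± 4.53 CPM in DMSO. Of 32 immediate-early and AP-1 genes, 8 rose and 7 fell (25% and 21.9%, beside 15.9% and 18.2% of all), FOSL1 having 247 ± 8.04 CPM in the siZNF274-labelled libraries, 318 ± 16.6 CPM in siCTRL and 388 ± 5.55 CPM in DMSO. Of 13 mitochondrial mRNAs, edgeR and DESeq2 called 0 against DMSO (2 were higher at an unadjusted p under 0.05, and 6 were called higher without DMSO replicate 1). Of 5 tested genes of the Prader-Willi locus 1 fell (20%, near the 18.2% of all). Among markers of other cells, 1 of 6 tested leukocyte genes (16.7%), 2 of 6 fibroblast genes (33.3%) and 2 of 5 neuroendocrine genes (40%) rose. Of 4 acinar genes 1 rose and 1 fell (25% each way), and of all tested genes 15.9% rose and 18.2% fell. The neuroendocrine markers summed to 112 to 122 CPM of the total count in the siZNF274-labelled libraries, 84.4 to 92.4 in siCTRL and 76.3 to 81.0 in DMSO.

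The same contrast in ASPC1 was used to ask whether the effects were those of CFPAC1. In ASPC1 7917 of 16186 tested genes (48.9%) were called between siZNF274-labelled and DMSO libraries, 3874 higher (23.9%) and 4043 lower (25%). The test of the difference between lines called 4577 of 19094 genes (24%), 2132 with the larger log2 fold change in CFPAC1 (11.2%) and 2445 with the larger one in ASPC1 (12.8%). For interferon-stimulated genes the lines parted: in ASPC1 6 of 37 tested members rose and 21 fell, and 34 of 42 differed between lines, each with the larger value in CFPAC1. OAS2 differed by 3.268 log2 (SE 0.261, edgeR adjusted p = 2.65e-10). The integrated stress response parted the other way, with 33 of 36 members risen and 1 fallen in ASPC1 (median 1.03) and 31 of 39 lower in CFPAC1 by the test of the difference. DNA replication genes fell in both lines, 37 of 49 in ASPC1, and 8 were higher and 3 lower in CFPAC1 by that test. Chromosome 19 ZNF genes rose in 78 and fell in 8 of 168 tested members in ASPC1, with 7 members higher and 28 lower in CFPAC1 by the test of the difference. Classical PDAC genes rose in 4 and fell in 15 of 24 in ASPC1, and 15 of 28 were higher and 3 lower in CFPAC1 by the test of the difference.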

How the data were processed

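RNA-seq counts per gene, as deposited by the authors in 1 table of the RNA-seq samples of the series, were whole-number counts of 36843 genes. Of these genes, 7207 had none in CFPAC1. Per the labels' protocols the libraries were stranded and depleted of ribosomal RNA, and the submitters' processing notes name STAR 2.7.10b. No source used here names the counting program, its strand setting or its handling of shared reads, which affects similar and overlapping genes.

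From these counts, edgeR 4.0.16 (R 4.3.3) was run with filterByExpr, TMM and the quasi-likelihood test on all 12 CFPAC1 libraries, with Benjamini-Hochberg adjusted p under 0.05. The difference between lines was an interaction term over 24 libraries. DESeq2 1.42.0, other scalings and filters, the replicate block and leaving out 1 library were alternatives, and the scripts were tested on simulated data. Same-numbered siZNF274 and siCTRL libraries deviated together (correlations 0.457, 0.144 and 0.132), which meets the rule set for pairing (all 3 over 0.1), by the data and not by the labels. Differently numbered libraries had correlations from -0.339 to 0.274, so the hint is weak for numbers 2 and 3.

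The members and the 36 gene lists were chosen with earlier results of these data known. Genes were named by size of change among called genes of at least 1 CPM whose libraries did not overlap (12 rises, 12 falls, and 4 of each for long non-coding genes), by difference from both controls or sharing with siCTRL (10 rises and 10 falls each), and by list (the 4 largest calls and the member with the most counts). Genes outside this rule, such as MX1, CDH1, FN1, E2F1, CEACAM5, ZNF850 and the genes given as not called, were chosen after their values were seen. Symbols of 36717 IDs matched the gene name table, and 2 list symbols found no row. Promoter sequences came from RefSeq.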

Additional observations from a re-analysis of the deposited data

Results flagged for a closer look

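Of 139 named genes, 62 had a log2 fold change of the siZNF274-labelled over the DMSO libraries that differed between CFPAC1 and ASPC1 by the test of the difference itself (edgeR, adjusted p under 0.05, 24 libraries). Over all 19094 tested genes this test called 4577 (24%). Many named genes were chosen for their change in CFPAC1, whose libraries enter this test too. The choice thus favours a difference in the direction of that change. The values are CFPAC1 minus ASPC1 on the log2 scale, so their sign is not that of the change within CFPAC1. Of the 62 genes, 38 had a positive and 24 a negative value. Interferon, sensor and antigen presentation genes among them were on the positive side, with 4.09 for IFITM1, 3.268 for OAS2, 2.56 for RSAD2, 2.31 for MX1 and 2.22 for IFI27. The others of that kind had 1.38 for HLA-F, 1.25 for STING1, 1.25 for NLRC5, 1.03 for IFIH1, 0.85 for DHX58 and 0.65 for B2M.

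Epithelial and ductal genes lay mostly on the positive side. In ASPC1 27 of 33 tested genes of epithelial adhesion and splicing fell and 2 rose. CDH1, ESRP1, EPCAM, KRT8 and TNS4 fell in CFPAC1, so for them a positive value is a smaller fall than in ASPC1. The differences were 2.22 for KRT20, 2.05 for CEACAM5, 1.80 for CLDN2, 1.76 for TSPAN8, 0.82 for TNS4, 0.75 for KRT8, 0.58 for CDH1, 0.52 for ESRP1 and 0.38 for EPCAM, while KRT7 had -0.93. HNF4A had 0.35 and GATA6 -0.35. Matrix and TGF-beta genes were divided, with 2.03 for FN1, 2.04 for TGFBR3, 1.92 for ENG, 1.07 for ID1 and 0.74 for TGFB2 on the one side and -2.18 for SNAI2 and -0.40 for TIMP2 on the other.

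Stress genes among them had the smaller log2 fold change in CFPAC1, with -1.504 for DDIT4, -1.02 for ATF4, -1.02 for SLC7A5, -0.73 for HMOX1 and -0.43 for XBP1. AKR1B10 had 2.79 and CA12 2.30. Among genes named by the size of their change, the positive differences were 5.30 for NWD2, 4.42 for ITGA11, 3.68 for ANXA13, 2.32 for ADH6 and 1.24 for CH17-360D5.2. NWD2 and ITGA11 drew few counts in CFPAC1, as given above, and ITGA11 passed at an adjusted p of 0.041 (edgeR). The negative ones were -5.34 for EDN2, -2.66 for CAVIN1, -2.45 for IL23A, -1.85 for AF064860.7, -1.23 for ZBED2 and -0.53 for LOXL4. Among genes given above as shared with the control siRNA, MUC5B had 3.41. On the negative side, TAGLN had -2.24, LBH -2.03, ATG9B -1.79 and HBEGF -0.85.

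The remaining positive differences were 0.72 for SLC30A1, 0.61 for ATP6V0E1, 0.26 for CDK1 and 0.21 for NPM1. The remaining negative ones were -1.38 for FOSL1, -1.05 for ICAM1, -0.59 for IL18, -0.49 for TNFRSF10B and -0.31 for CDK7. ATP6V0E1 fell in CFPAC1 all the same, and ICAM1 and TNFRSF10B rose there.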

How the results depend on the processing

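Call counts kept their size (within 1.5 times) under the alternatives run, except as follows. With a filter of 1 CPM in 3 libraries, 355 genes were at least 2-fold higher and 147 at least 2-fold lower in siZNF274 against DMSO, 117 and 46 in siZNF274 against siCTRL, and 41 were at least 2-fold lower in siCTRL against DMSO; fewer low genes enter the test there. Leaving out 1 library at a time gave 1565 to 2434 genes lower in siZNF274 against siCTRL, the lowest without siZNF274 replicate 2; the siCTRL libraries were left out in turn as a choice made after seeing the data. DESeq2 called 2797 genes higher and 3224 lower than DMSO. ZNF274 stayed higher than DMSO under all alternatives run for it (log2 fold change 0.18 to 0.24). Of the named genes, 2744 refits kept direction and call, 86 lost the call, 14 gained it and 12 turned the sign of a gene that was not called. Those were SNHG14 (0.0272 under upper quartile scaling, 0.0097 with the 1 CPM filter, 0.0113 from the 6 libraries alone, -0.0395 to 0.0474 leaving out 1 library), MT-CO1 (0.0114 under upper quartile scaling, -0.18 to 0.29 leaving out 1), LCN2 (-0.0194 to 0.16), COL1A1 (-0.37 to 0.0440) and VIM (-0.0429 to 0.11); the cause was not tested. Counts of called list members moved by more than 1.5 times in 89 of 1008 refits, and list medians moved beyond the spread between libraries in 81 of 504.

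For siZNF274 against DMSO the replicate numbers paired no libraries (same-number correlations 0.0695, 0.107 and 0.0297), and with the replicate block 2963 genes were higher and 3386 lower. For siZNF274 against siCTRL, 2252 were higher and 2476 lower with the block. Of the named genes of siZNF274 against DMSO, MMP2 lost its call under the block (edgeR, adjusted p = 0.0511), and of 72 list counts 1 moved by over 1.5 times, with 1 mitochondrial mRNA called higher. Of 72 list counts of siZNF274 against siCTRL, 3 moved: 8 NRF2 targets (5 without the block) and 5 histone genes (2) were higher and 1 Prader-Willi gene (0) was lower. In siCTRL against DMSO 3 of 72 moved: 1 integrated stress gene (2 without the block) was lower, and 4 mitochondrial mRNAs (2) and 2 RNA interference genes (1) were higher. HLA-F and AKR1B10 gained a call against siCTRL (edgeR, adjusted p = 0.0277 and 0.0224). List counts of these 2 comparisons were refitted with the block alone. Depth limits the genes near 1 CPM, for which about 40 counts stand behind a value.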
